A study of Mus musculus with 48 samples.

Results

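Cells low in Ly6C and high in MHC class II (Ly6Clo MHCIIhi), sorted from colon tumours of mice, were compared between samples labelled ko and samples labelled ctrl. The ko refers to CCL17, a chemokine encoded by Ccl17. The members were the libraries whose titles name this population with either genotype, 24 of 48 libraries in the series. Libraries that share a genotype and a replicate number were added together, which gave 8 replicates labelled ctrl and 8 labelled ko, of 40 replicates in all. Both groups carried the same treatment label, AOM DSS, and were taken at day 85. AOM is azoxymethane, a carcinogen, and DSS is dextran sulfate sodium, an agent that damages the gut epithelium and brings on colitis. No source used here gives the strain, the age of the mice, the deleted part of Ccl17 or the genotype behind ctrl. The series names ko mice kept with control mice and ko mice kept apart, but no sample carries a housing label, so housing was not tested. Nothing in the labels says that replicates came from separate animals, so every p-value measures only the spread between these samples.

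CCL17 and its neighbour CCL22 are chemokines that dendritic cells and macrophages release, and both bind the receptor CCR4 on regulatory and helper T cells. In the colon, monocytes enter from the blood with high Ly6C, lose Ly6C and gain MHC class II as they become resident macrophages, so a gate on low Ly6C and high MHC class II holds macrophages together with dendritic cells. Immediate early genes encode transcription factors such as FOS, JUN and EGR1 that cells switch on within minutes of a stimulus, with no need for new protein. NF-kB is a family of transcription factors that drives cytokine genes in such cells.

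Each library was read through a barcode of 6 bases. A barcode was called G/C-rich with at least 3 G or C bases and A/T-rich otherwise, and 8 of 12 ctrl but 4 of 12 ko libraries were A/T-rich. The barcodes of 3 replicates with 2 libraries are shown because their libraries differ in class or not, with G and C in capitals.
ctrl replicate 5, library 1: tCtGCa
ctrl replicate 5, library 2: aatCtt
ko replicate 4, library 1: ttGaaa
ko replicate 4, library 2: GtaCCG
ko replicate 5, library 1: CCaaCC
ko replicate 5, library 2: CCtGGC
In library 1, replicates 1 to 4 of both genotypes had A/T-rich barcodes and replicates 5 to 8 had G/C-rich ones. Class and replicate set therefore cannot be told apart in library 1, but each set holds both genotypes.

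The 24 libraries held 39872 to 500683 counts with a median of 365042, and the 16 replicates 39872 to 891461. The replicates under 100000 counts were ctrl replicate 2 (51630) and ko replicate 6 (39872). Levels are given as CPM, a gene's counts relative to the library total, scaled by the trimmed mean of M values (TMM). Genes that mark mature macrophages summed to 23070 to 54540 CPM in ctrl and 37020 to 55810 CPM in ko, led by Apoe, C1qb and C1qa. Markers of conventional dendritic cells type 1 summed to 477 to 1228 CPM in ctrl and 539 to 952 CPM in ko, led by Irf8, Naaa and Batf3. Irf8 alone ran from 256 to 891 CPM in ctrl. The dendritic cell markers Xcr1, Clec9a, Flt3 and Zbtb46 had too few counts to be tested. Cd74, the chaperone of MHC class II, stood at 13670 CPM in ctrl and 13840 CPM in ko, and Ly6c2, which encodes Ly6C, at 28.8 and 24.2 CPM. The gate thus held macrophage markers at the higher sum, and genes listed for dendritic cells whose cells of origin these values do not show. Its sort markers did not separate the groups. In bulk RNA, fewer cells of a type and less RNA per cell cannot be told apart. Over 3000 genes of at least 50 CPM, 3 replicates were most often far from the rest of their group: ko replicate 6 in 411 genes, ctrl replicate 3 in 229 and ctrl replicate 2 in 226, against 1 to 47 in the other 13.

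Ccl17 (chromosome 8, 94810453 to 94812036, plus strand, GRCm38; a protein-coding gene) was looked at first because it checks the labels. It ran from 0 to 796 CPM over the ctrl replicates, with a median of 57.2, and from 0 to 6.89 CPM over the ko replicates, with a median of 3.46. The ctrl level was therefore spread widely, and 5 of 8 ctrl replicates lay above the highest level measured in ko. Of 510 ctrl counts, 97.1% came from replicates 4, 5 and 6, and the ko replicates held 15 counts in all. Ctrl replicate 3 held 0 counts, which allows up to 19.6 CPM of its total, and ctrl replicates 1 and 7 held 3 and 1. Ko replicates 3 and 6 held 0 counts as well, which allows up to 9.39 and 75.2 CPM. Ko replicate 6 therefore cannot be placed below ctrl replicate 8, which stood at 9.42 CPM. The difference in mean log2(CPM + 1), ko minus ctrl, was -3.20 (two-sided exact permutation p = 0.0312, n = 8 each; the smallest p possible is 0.000155). The exact p passed 0.05 without ctrl replicate 2, 4, 5 or 6 or ko replicate 3 or 6, with the highest of these, 0.059, without ctrl replicate 4. Within G/C-rich libraries the difference was -3.78 (exact permutation p = 0.0317, 4 against 5), and within A/T-rich libraries -3.004 (exact permutation p = 0.15, 8 against 4). With 1 estimate of spread for all 8 groups of the series, Ccl17 alone of 6032 genes passed an adjusted p of 0.05 (0.0166%). Its log2 fold change was -5.30 (SE 0.96, adjusted p = 0.0271 by edgeR's quasi-likelihood test with Benjamini-Hochberg adjustment). Ccl17 was under the count filter between the 2 groups alone, and entered that fit through the ctrl group. Its mean there was 167 CPM in this ctrl group and at most 12.5 CPM in each other group. The shared spread thus drew on groups near 0 CPM, while this ctrl group ran from 0 to 775 CPM. That p is therefore no separate support.

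**Figure D1:**
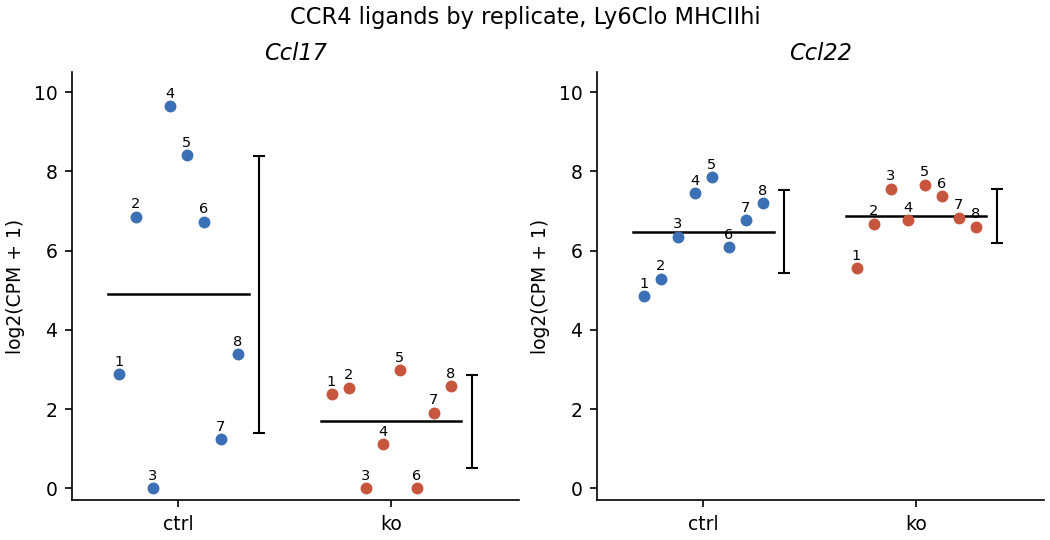
Level of Ccl17 and Ccl22 as log2(CPM + 1) in each replicate (points, with replicate numbers) of the groups labelled ctrl and ko. Lines are means and bars SD over 8 replicates, and Ccl17 exceeds 100 CPM in ctrl replicates 2, 4, 5 and 6 while Ccl22 overlaps throughout.

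Ccl22 (chromosome 8, 94745590 to 94751699, plus strand), the other ligand of CCR4, ran from 27.7 to 230 CPM in ctrl with a median of 93.8, and from 45.8 to 201 CPM in ko with a median of 110. These ranges overlapped almost entirely. Its log2 fold change was 0.12 (95% interval -0.70 to 0.93), and 0.53 and 0.03 in replicates 1 to 4 and 5 to 8. The receptor gene Ccr4 held 2 counts in ctrl and 1 in ko, and Ackr2, which encodes a scavenging receptor for these chemokines, held 0 counts in either group. Over the 8 ctrl replicates Ccl17 was set against 3 genes of mature dendritic cells. Pearson's r was 0.32 with Ccl22 (Spearman's rho 0.43), 0.074 with Ccr7, the homing receptor (rho -0.24), and -0.14 with Fscn1, an actin bundler (rho -0.071). None of the 3 relations held: the exact permutation p of r was 0.428, 0.881 and 0.787, and 0.881 each after adjustment over the 3. For rho the exact permutation p was 0.299, 0.582 and 0.882, and 0.873, 0.873 and 0.882 after adjustment. Without the 2 replicates farthest from the median of Ccl17, r was 0.19, 0.35 and -0.13.

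For 8 replicates a second library carried the same replicate number, and the labels do not say whether both came from a single sort. Over 3000 genes the libraries of a replicate correlated at r = 0.11 to 0.43 after differences by genotype and by barcode class were removed. The correlation runs across genes, which are not independent replicates. By it, 11 of 16 libraries matched their own partner best. Ccl17 gave 135 and 134 counts in the libraries of ctrl replicate 5 and 46 and 47 in those of ctrl replicate 6, so its level per library total differed 1.25-fold and 1.15-fold. The barcodes of each of these pairs were of different classes. The high Ccl17 of these ctrl replicates was thus found in both of their libraries, and the low level in ctrl replicate 7 (1 and 0 counts) and 8 (4 and 1) as well. Igkc, the immunoglobulin kappa constant gene of plasma cells, gave 43 and 1647 counts in ctrl replicate 5 and 1779 and 22 in ko replicate 4, a 62.9-fold difference relative to the library totals in the latter. Hbb-bs, a beta globin gene of red cells, differed 38.4-fold in ctrl replicate 5 and 35.6-fold in ko replicate 8, and both libraries of the latter had G/C-rich barcodes. The other pairs of Igkc differed 11.6-fold and 30.8-fold in ctrl replicates 6 and 5 and 1.09-fold to 2.13-fold in the remaining 5, and those of Hbb-bs 14.5-fold in ctrl replicate 7 and 1.12-fold to 3.54-fold in the remaining 5. Differences over 10-fold between libraries of a replicate thus occurred in 3 of 8 pairs for each gene.

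**Figure D2:**
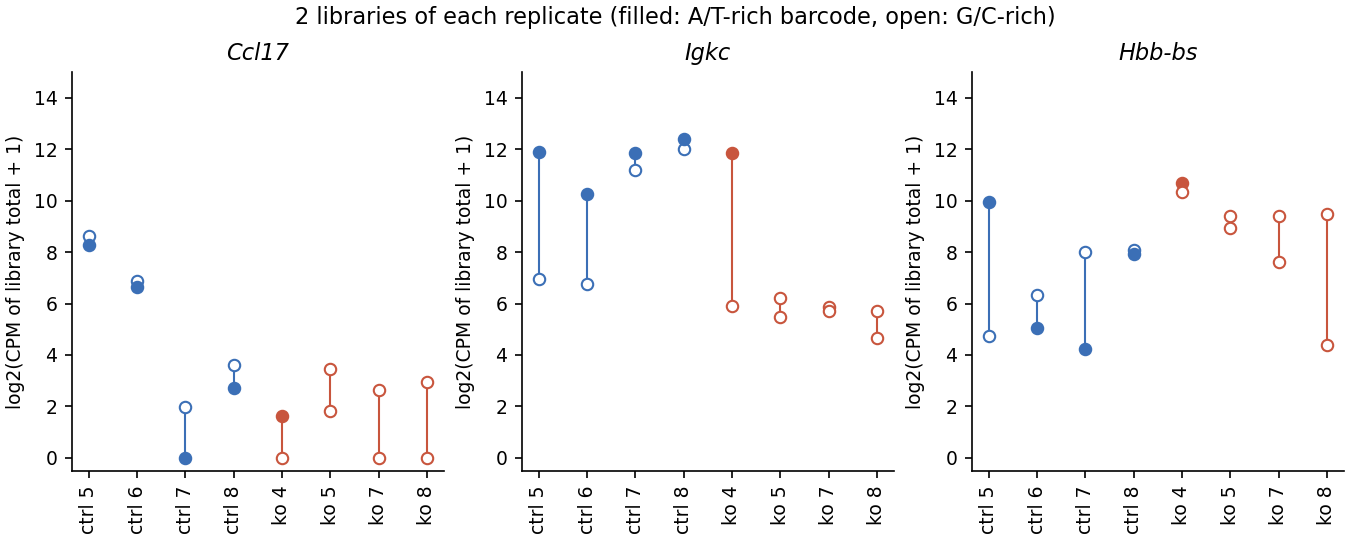
Level as log2(CPM of the library total + 1) of Ccl17, Igkc and Hbb-bs in the 2 libraries of each of 8 replicates, joined by a line. Filled points are libraries with A/T-rich and open points with G/C-rich barcodes, and the Ccl17 points of ctrl replicates 5 and 6 lie close together where those of Igkc lie far apart.

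Of 5660 genes tested between ko and ctrl, 0 had an adjusted p under 0.05 in edgeR's quasi-likelihood test with Benjamini-Hochberg adjustment (0% of genes), and 0 in DESeq2. An unadjusted p under 0.05 was found for 277 genes (4.89%), with 158 lower genes (2.79%) and 119 higher genes (2.1%) in ko by edgeR, and 146 and 90 by DESeq2. The counts were deep enough to bound most changes. The 95% interval lay within 2-fold for 5353 genes (94.6%), and of 1711 genes of at least 100 CPM it lay within 1.5-fold for 1408 (82.3%). The groups did not overlap in 2 of 5660 genes (0.0353%). In Phkg2, a catalytic subunit of phosphorylase kinase, ctrl ran from 31.2 to 59.6 CPM and ko from 19.1 to 28.3. Its counts were few, 159 in ctrl and 102 in ko. Ko replicate 6 stood at 23.4 CPM, where 3 counts would make 75.2 CPM, so it cannot be placed below the ctrl range. In Fcer1g, the shared signalling chain of Fc receptors, ctrl ran from 4031 to 4634 CPM and ko from 4769 to 5876.

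No single gene passed, so the genes with the smallest p are given as values that did not pass. Map3k14 (chromosome 11, 103219762 to 103267472, minus strand) encodes the kinase NIK, which starts the alternative NF-kB pathway. It ran from 74.5 to 144 CPM in ctrl, with a median of 95.2, and from 41.6 to 78.7 CPM in ko, with a median of 53.6. The groups crossed only where ko replicate 4 exceeded ctrl replicate 1, and 8 of 8 ko replicates lay below the ctrl mean. The log2 fold change was -0.73 (SE 0.16, adjusted p = 0.372 by edgeR), and -0.68 and -0.67 within A/T-rich and G/C-rich libraries. With each library as its own sample, which counts a replicate with 2 libraries as 2, its adjusted p was 0.0361. Lower in ko with an adjusted p of 0.934 by edgeR each were Yy1, a zinc finger transcription factor (-0.63), Phkg2 (-0.75), Uvrag, which acts in autophagy (-0.60), Txnip, a regulator of redox state and glucose uptake (-0.54), Tmem88 (-0.84), Agpat4, an acyltransferase of phospholipid synthesis (-0.57), and the immediate early genes below. On the higher side stood Ms4a6d, Fcer1g, Nr1h3, Msr1, Adgre1 and Lgals3bp, described with the macrophage genes, and Ccdc134 (0.86), Il18bp, which binds interleukin-18 (0.68), Rap1gds1, an exchange factor of small GTPases (0.51), and Tmem29 (0.79). Il18bp and Tmem29 were highest in ko replicate 6.

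**Figure D3:**
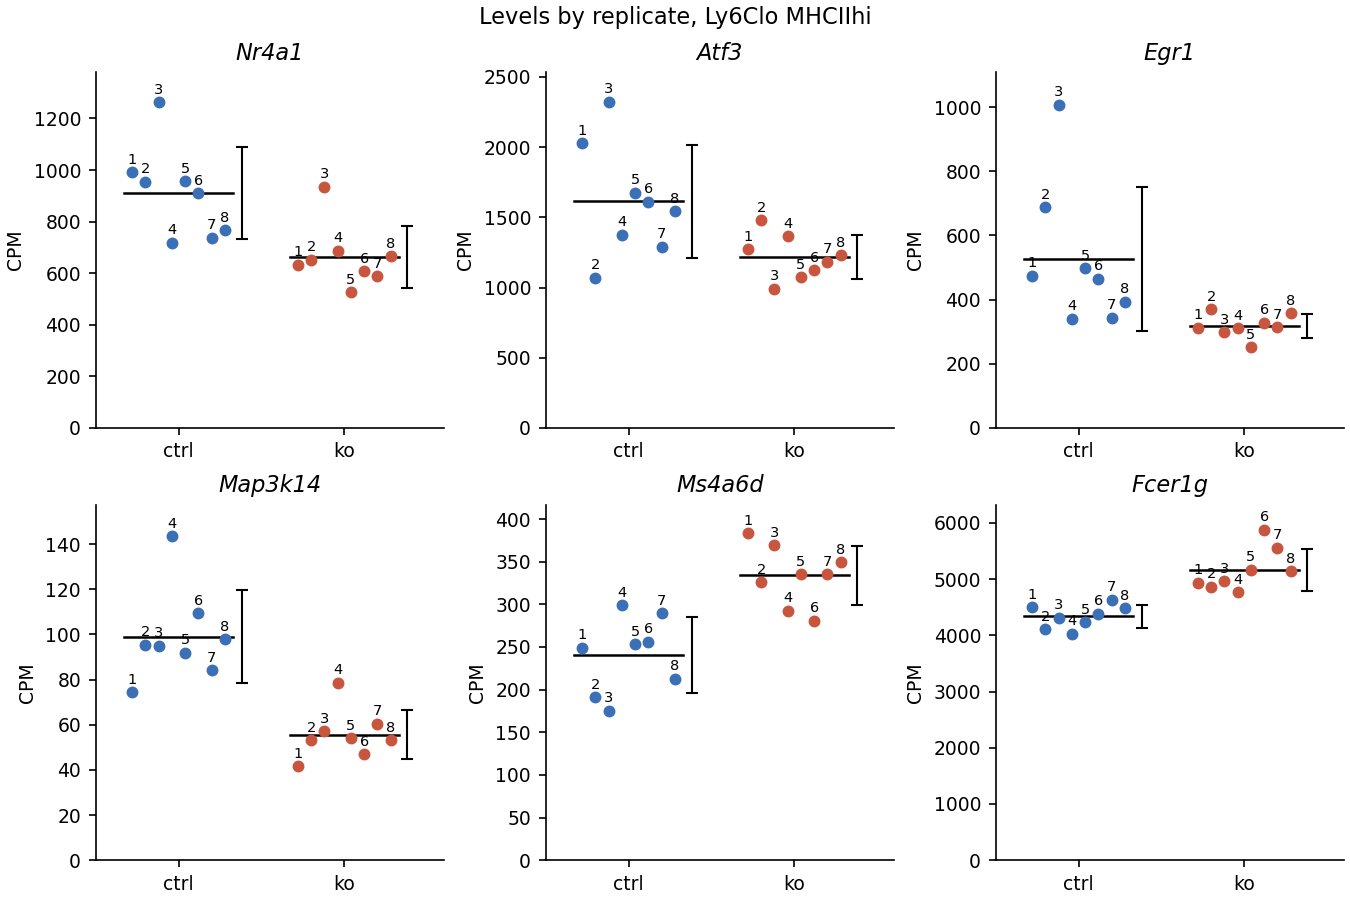
Level in CPM of Nr4a1, Atf3, Egr1, Map3k14, Ms4a6d and Fcer1g in each replicate (points, with replicate numbers), with means (lines) and SD (bars) over 8 replicates per group. Ko lies lower in the first 4 genes and higher in Ms4a6d and Fcer1g, where Fcer1g alone shows no overlap.

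Immediate early genes lay mostly on the lower side in ko. Of 17 tested members, 12 were lower in ko and 0 higher at an unadjusted p under 0.05, where 2.79% of all genes were lower. The median log2 fold change was -0.34, beside -0.01 over all genes, and 16 of 17 lay below 0, beside 2938 of 5660. Atf3 (chromosome 1, 191170296 to 191218039, minus strand), a stress-induced factor, ran from 1069 to 2324 CPM in ctrl, with a median of 1578, and from 992 to 1480 CPM in ko, with a median of 1207. Nr4a1 (chromosome 15, 101254269 to 101274795, plus strand), a nuclear receptor that also maintains Ly6C-low monocytes, ran from 718 to 1264 CPM in ctrl, with a median of 933, and from 526 to 935 CPM in ko, with a median of 642. Egr1 ran from 341 to 1008 CPM in ctrl and from 253 to 369 CPM in ko. In each of these 3 genes the ko range overlapped the ctrl range, and 8, 7 and 8 of 8 ko replicates lay below the ctrl mean. The log2 fold changes were -0.41 (SE 0.12), -0.45 (SE 0.12) and -0.69 (SE 0.18), each with an adjusted p of 0.934 by edgeR. All 3 genes were highest in ctrl replicate 3, without which they stood at -0.33, -0.375 and -0.49. The median of the list was -0.29 without it. Ier2 followed at -0.43 (SE 0.14), and Jun (-0.57), Klf6, Fosb, Zfp36, Ier5, Junb, Fos and Btg2 made up the 12. Klf4 was the 1 member above 0 (0.04, and -0.12 without ko replicate 5).

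The 150 bases before the start of 3 of these genes are shown because the members lay low together. The starts are those of RefSeq, and those of Nr4a1 and Atf3 lie inside the wider GENCODE bounds given above, downstream of the outermost start. The letters have the motif TGACG, the core of the cAMP response element, in capitals on either strand (GRCm38.p6).
Nr4a1, chr15:101266696-101266845, plus strand: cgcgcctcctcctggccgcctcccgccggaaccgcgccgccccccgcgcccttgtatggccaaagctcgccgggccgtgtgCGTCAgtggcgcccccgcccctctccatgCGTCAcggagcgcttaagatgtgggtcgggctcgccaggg
Atf3, chr1:191183334-191183483, minus strand: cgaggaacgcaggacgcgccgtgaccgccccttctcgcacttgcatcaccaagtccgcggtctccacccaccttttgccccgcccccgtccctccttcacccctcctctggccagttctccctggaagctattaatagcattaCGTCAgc
Fos, chr12:85473740-85473889, plus strand: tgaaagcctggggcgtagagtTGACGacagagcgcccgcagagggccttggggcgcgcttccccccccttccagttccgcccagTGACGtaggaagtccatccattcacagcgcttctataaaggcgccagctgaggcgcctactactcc
Windows held 300 bases around the start, 250 of them before it. Egr1 was left out of the listed members here, and the windows of all genes were not cut in that way. The shares below are therefore not of like sets. TGACG on either strand was in 9 of 15 listed members with a window here and in 20.8% of 32851 windows of all genes. The 9 were Atf3, Btg2, Dusp1, Fos, Fosb, Junb, Klf2, Klf4 and Nr4a1, so all 3 genes shown hold it. Dusp1, Klf2 and Klf4 were not of the 12 lower members, and Zfp36, which was, had a window without it. The motif was thus not confined to the lower members. The full element TGACGTCA, which holds the shorter motif on both strands, was in 2 of 15, Btg2 and Dusp1, and in 1.79% of all. The CArG box, the site of serum response factor, was in 1 of 15, Zfp36, and in 1.63% of all. These are matches of letters and say nothing of binding.

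The 2 sets of replicates share no sample, but together they are the replicates already compared above. Members that were low over all replicates are therefore likely to be low in each set, and the sets give no independent test. In library 1 of replicates 1 to 4 the immediate early members had a median log2 fold change of -0.40, and 7 of 17 were lower at an unadjusted p under 0.05 (1.96% of 4074 genes were lower and 1.35% higher). In library 1 of replicates 5 to 8 the median was -0.35, and 8 of 17 were lower (2.1% of 4616 genes were lower and 1.65% higher). In both sets 15 of 17 lay below 0, beside 28.1% of 3924 genes measured in both. Atf3 stood at -0.45 and -0.44, Nr4a1 at -0.46 and -0.47, and Egr1 at -0.98 and -0.47. Within A/T-rich libraries 6 members were lower and within G/C-rich libraries 8, with medians of -0.28 and -0.31. The count of 12 was also 12 without ctrl replicate 3, without ko replicate 6, and without both replicates under 100000 counts. Heat shock genes, another group that cells induce on stress and handling, lay below 0 in 6 of 7 members, with a median of -0.14. Only Hspa8, a constitutive chaperone (-0.46), was lower at an unadjusted p under 0.05, and it was highest in ctrl replicate 3, without which it stood at -0.25. The part of handling time in the immediate early difference was not tested, since no label gives it.

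**Figure D4:**
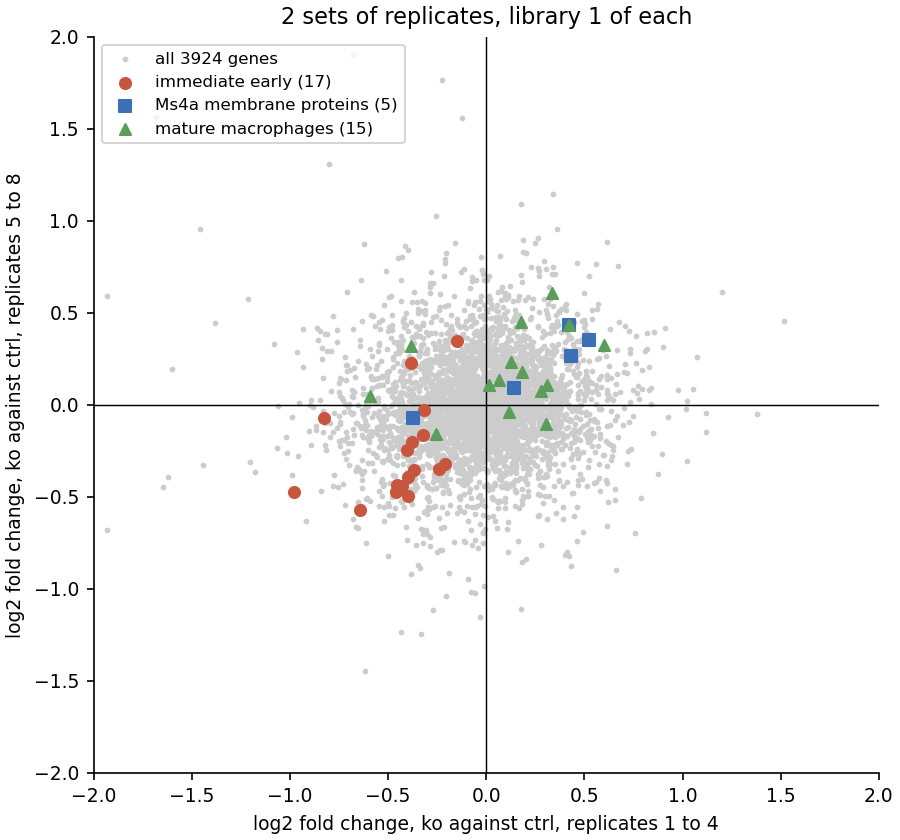
Log2 fold change of ko against ctrl in library 1 of replicates 1 to 4 (horizontal) and of replicates 5 to 8 (vertical), for 3924 genes (grey) with 3 gene lists in colour; 12 genes lie outside the axes. Of the 17 immediate early genes, 15 lie in the lower left, and 4 of 5 Ms4a genes lie in the upper right.

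The subunits, kinases and inhibitors of NF-kB had a median of -0.22 over 18 members. At an unadjusted p under 0.05, 2 were lower (2.79% of all genes) and 0 higher: Map3k14, and Tnfaip3, which encodes the brake A20 (-0.50, SE 0.19). In both sets 10 of 16 members lay below 0, beside 28.1% of all genes. Without ctrl replicate 3 the median was -0.13. The count was 5 without ko replicate 3, 3 without ctrl replicate 3, 1 within A/T-rich and 5 within G/C-rich libraries. Relb and Ikbkb stood at 0.02 and 0.00, and turned sign in several alternatives. Inflammatory cytokines and enzymes lay below 0 in 9 of 9 members with a median of -0.53, but 1 replicate carried much of this. In ctrl replicate 3 Nos2, which makes nitric oxide, stood at 2660 CPM, where the next ctrl replicate had 140 CPM and the ko replicates ran from 11.6 to 223 CPM. In the same replicate Ptgs2, which makes prostaglandins, stood at 3975 CPM, next to 816, and Ccl5, a chemokine for T cells, at 13470 CPM, next to 876. Without ctrl replicate 3 the median of the list was -0.08, and Nos2 turned from -2.10 to 0.73, Ccl5 from -1.17 to 1.19 and Ptgs2 from -1.12 to -0.14. Tnfsf9, a ligand of T cell co-stimulation, was the 1 member at an unadjusted p under 0.05 (-0.81). Ccl3 and Ccl4, chemokines for monocytes, stood at -0.89 and -0.46, and were highest in ctrl replicate 3 too. Without it Ccl3 stood at -0.24 and Ccl4 at -0.25. Socs3, which dampens cytokine receptors, stood at -0.38 (SE 0.14).

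Genes of mature macrophages lay on the higher side. Of 15 tested members, 4 were higher in ko and 0 lower at an unadjusted p under 0.05, where 2.1% of all genes were higher, and the median log2 fold change was 0.21. These were Adgre1, which encodes F4/80 (0.48, SE 0.16), Ms4a7 (0.44, SE 0.18), Fcgr1, the high-affinity receptor for IgG (0.32, SE 0.14), and Cd63, a tetraspanin of late endosomes (0.46, SE 0.21). Adgre1 ran from 91 to 191 CPM in ctrl and from 129 to 220 CPM in ko, so the groups overlapped widely. Over all replicates the members ran from -0.35 to 0.48, with 2 below 0. In both sets 10 of 15 members lay above 0, beside 25.9% of 3924 genes. Leaving out single replicates gave counts of 1 (without ko replicate 2) to 7 (without ctrl replicate 1), and medians of 0.11 (without ctrl replicate 3) to 0.28. The count was 0 in replicates 1 to 4 (1.35% of all genes) and 3 in replicates 5 to 8 (1.65%). It was 1 within A/T-rich and 3 within G/C-rich libraries. Msr1, a scavenger receptor, stood at 0.43 and Lgals3bp, a secreted glycoprotein that binds galectins, at 0.44.

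The Ms4a genes encode membrane proteins with 4 passes, several of which mark macrophages. Of 6 tested, 3 were higher in ko (2.1% of all genes) and 0 lower at an unadjusted p under 0.05, with a median of 0.34. These were Ms4a6d, Ms4a6c and Ms4a7, and Ms4a7 was already counted in the macrophage list. Ms4a6d (chromosome 19, 11586604 to 11604849, minus strand) ran from 175 to 299 CPM in ctrl, with a median of 251, and from 281 to 383 CPM in ko, with a median of 336. Only ko replicates 4 and 6 lay below the highest ctrl value, and 8 of 8 ko replicates lay above the ctrl mean. Its log2 fold change was 0.45 (SE 0.12, adjusted p = 0.934 by edgeR), and 0.52 and 0.35 in the 2 sets. Ms4a6c stood at 0.32 (SE 0.11) and Ms4a4c at -0.12. The count was 2 within A/T-rich libraries and 2 within G/C-rich ones.

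Among Fc receptors and their adaptors, 2 of 7 were higher and 1 lower at an unadjusted p under 0.05 (2.1% and 2.79% of all genes). The count of higher members was 1 (without ctrl replicate 5) to 4 (without ko replicate 4) when single replicates were left out, and 0 within A/T-rich libraries. Fcer1g (chromosome 1, 171229572 to 171234365, minus strand) stood at 0.25 (SE 0.07, adjusted p = 0.934 by edgeR), and each ko replicate exceeded the highest ctrl replicate. Fcgr1, already counted in the macrophage list, was the other higher member. Syk, the kinase that receives the signal of the Fcer1g chain, stood at -0.27 (SE 0.13). Fcgr3 stood at 0.20. Lysosome genes had 2 of 18 higher at that p (2.1% of all genes) and a median of 0.14. The 2 were Cd63, already counted in the macrophage list, and the protease gene Ctsz (0.23). The count was 0 without ko replicate 1 and 6 without ctrl replicate 1. Of 10 genes of tumour-associated macrophages, the matrix protease gene Mmp14 (0.32) and the fatty acid carrier gene Fabp5 (0.42) were higher at that p (2.1% of all genes). The count was 0 without ko replicate 8 and 0 in replicates 1 to 4. In the cholesterol and oxysterol list 2 of 14 were higher and 1 lower (2.1% and 2.79% of all genes). Nr1h3, the oxysterol receptor LXR alpha, ran from 7.31 to 49 CPM in ctrl and from 35 to 72.4 CPM in ko (0.66, SE 0.21), lowest in ctrl replicate 3. Insig1, which holds back sterol synthesis, stood at 0.40, and Hmgcs1, an enzyme of that synthesis, at -0.60.

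Of 16 tested genes of dendritic cell maturation and migration, 0 were higher or lower at an unadjusted p under 0.05, and the median was 0.00. In replicates 1 to 4 0 of 14 were lower at that p (1.96% of all genes), and in replicates 5 to 8 3 of 14 (2.1%). Cd83, a maturation marker, stood at -0.25 (95% interval -0.54 to 0.05), and Ccr7 at -0.22 (-0.88 to 0.45). Of 6 type 1 dendritic cell genes 0 passed that p, but 6 of 6 lay below 0, with a median of -0.13. Below 0 lay 2938 of all 5660 genes. In both sets 4 of 6 lay below 0, beside 28.1% of 3924 genes. Among the 6 was Irf8, their defining factor, at -0.22, and at -0.01 without ctrl replicate 3. The 2 tested genes shared by both types had a median of -0.13. Of 4 type 2 genes 0 passed, with Sirpa at 0.09. In the MHC class II list Cd74 stood at 0.02 (95% interval -0.13 to 0.16), Ctss, the protease that trims its protein, at 0.19 (SE 0.08), and Ciita, the master regulator, at -0.30 (SE 0.16). The genes of the class II chains are not analysed here.

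Other lists showed small or uneven differences. Type I interferon response genes had 2 of 8 higher (2.1% of all genes; 1 of 7 tested without ko replicate 5), Bst2, which tethers virus particles (0.41, SE 0.14), and the factor gene Irf7 (0.50, SE 0.21). Their median of 0.37 was -0.16 without ko replicate 5, and over the 6 measured in both sets -0.04 and 0.53. Interferon gamma response genes had 0 of 10 at an unadjusted p under 0.05, with medians of -0.59 and 0.30 in the sets. Cxcl9, a chemokine of this response, stood at 0.83 and at -0.10 without ko replicate 5, where it was 2075 CPM. Glycolysis (10 members, median 0.05), cell cycle (9 members, 0.02) and classical monocyte genes (5 members, -0.04) had 0 members at that p.

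**Figure D5:**
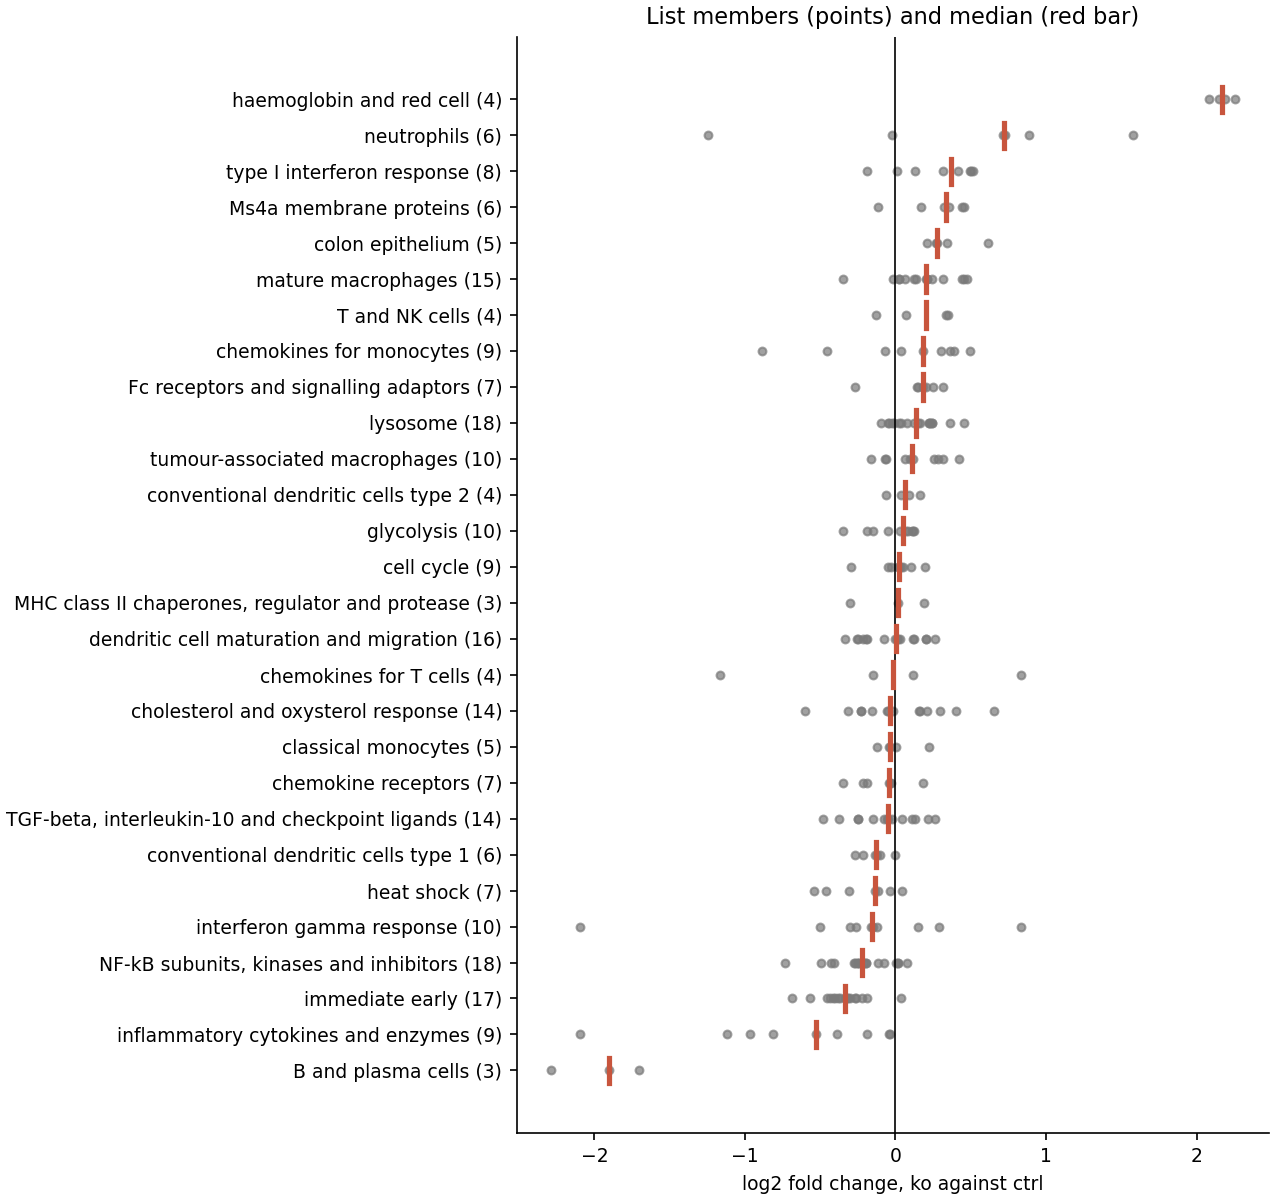
Log2 fold change of ko against ctrl for each tested member of the gene lists with at least 3 tested members (points), with the median (red bar) and the number of members in parentheses. Immediate early genes lie together below 0 (median -0.34), and the widest shifts are those of B and plasma cell (-1.90) and haemoglobin genes (2.17).

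Markers of other cells were compared in the same way. The 4 tested haemoglobin genes were all higher in ko at an unadjusted p under 0.05 (2.1% of all genes), with a median of 2.17. Without ko replicate 6 this held for 2 of 4, and without both replicates under 100000 counts for 0 of 4, with a median of 1.43. Haemoglobin genes have near-identical copies that may share reads, so the 4 are not separate results. Their summed level ran from 29.9 to 1524 CPM in ctrl and from 422 to 13370 CPM in ko. For 3 genes of B and plasma cells the median was -1.90 with 0 at an unadjusted p under 0.05, and the summed level ran from 55.3 to 31700 CPM in ctrl and from 63.2 to 4848 CPM in ko. All 8 ko libraries with G/C-rich barcodes held 4 to 29 counts of Igkc, and the fold within G/C-rich libraries was -4.91, against -1.25 within A/T-rich ones. The median over 6 neutrophil genes was 0.72, and over the 4 measured in both sets -0.56 in replicates 1 to 4 and 1.42 in replicates 5 to 8. Summed neutrophil levels were 390 to 1841 CPM in ctrl and 632 to 1873 CPM in ko, and those of mast cell genes 10.6 to 671 and 0 to 1501 CPM. Colon epithelium genes summed to 115 to 636 CPM in ctrl and 146 to 587 CPM in ko, and T and NK cell genes to 61.7 to 252 and 93.7 to 562 CPM, with Ncr1 at 0 in every replicate. Fibroblast and endothelial genes summed to 7.31 to 92.3 CPM in ctrl and 23.4 to 91.6 CPM in ko, with Lum at 0. The 1 tested member, Pecam1, an adhesion molecule of endothelium and some leukocytes, stood at 0.60 (SE 0.26, 91 and 143 counts), above the ctrl mean in 8 of 8 ko replicates and at an unadjusted p under 0.05. At that p stood 0 of 2 mast cell, 0 of 4 T and NK cell and 0 of 5 epithelium genes. The part of these cells in the immediate early and macrophage differences was not tested.

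A test of the difference between the sets asked whether ko against ctrl was alike in replicates 1 to 4 and 5 to 8. By edgeR 0 of 5468 genes passed an adjusted p of 0.05 (0%), and 153 had an unadjusted p under 0.05 (2.8%). DESeq2 called 2, the neutrophil genes S100a8 and S100a9, whose products form calprotectin. In edgeR their log2 fold change was higher by 2.54 (SE 0.61) and 3.03 (SE 0.72) in replicates 5 to 8, each with an adjusted p of 1.00. Within library 1 of replicates 5 to 8 alone S100a8 stood at 1.90 (adjusted p = 0.00400 by edgeR), the 1 gene called there. Dpysl2 differed 3.77-fold to 8.68-fold between the libraries of the 5 replicates whose barcodes were of both classes. Across the replicates Dpysl2 and Gas7 stood at -0.28 (95% interval -1.28 to 0.72) and -0.45 (-1.10 to 0.20). In the sets, each of which has 1 class, Dpysl2 stood at 0.18 and 0.04 and Gas7 at -0.34 and 0.10.

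The same labels were compared in 3 other sorted populations, and the test of each difference asked where Ly6Clo MHCIIhi stood apart. Against Ly6Chi MHCIIlo and Ly6Clo MHCIIlo, 0 of 6032 genes differed past an adjusted p of 0.05 in edgeR (0% each; 290, or 4.81%, and 197, or 3.27%, at an unadjusted p under 0.05), and DESeq2 called 0. Against Ly6Chi MHCIIhi 1 of 6032 differed (0.0166%; 483, or 8.01%, at an unadjusted p under 0.05), Cd36, a scavenger receptor for oxidised lipids. The Cd36 level in Ly6Clo MHCIIhi was 14.8 ± 9.69 CPM (SD, n = 8) in ctrl and 21.5 ± 12.4 CPM (SD, n = 8) in ko. In Ly6Chi MHCIIhi the level was 63.9 ± 74.5 CPM (SD, n = 3) in ctrl and 3.85 ± 3.25 CPM (SD, n = 4) in ko. The log2 fold change was thus 4.36 higher (SE 0.88, adjusted p = 0.0453 by edgeR) in Ly6Clo MHCIIhi. The number of genes called was 310 without Ly6Chi MHCIIhi ctrl replicate 4, 17 without ctrl replicate 3 of that group and 0 without ctrl replicate 1 of it. It was also 0 without ctrl replicate 3, 4, 6 or 7 or ko replicate 1, 4 or 6 of Ly6Clo MHCIIhi. In the other populations all ctrl libraries had A/T-rich and all ko libraries G/C-rich barcodes, so genotype and barcode class cannot be told apart there.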

How the data were processed

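Poly(A) RNA was sequenced from its 3′ ends in bulk, with a barcode per library, as the labels' protocols describe. Counts in the table deposited by the authors are whole numbers for each gene and library and were not normalized. Per the submitters' processing notes, GRCm38, R 3.4.4 and DESeq2 1.18.1 were used. The sources used here do not state which aligner and counter were run, or whether strand or molecular identifiers were used, so genes that overlap or have near-identical copies (haemoglobin, Ms4a, immunoglobulin) may share reads. Floors cover counting error only, while intervals of fold changes also cover the spread between replicates.

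The 24 columns were matched to samples by the barcode in the labels. A row that names no gene (127 counts, 0.000967% of all) was removed, which left 24537 rows, of which 15856 carry a GENCODE M21 symbol. Levels are CPM of library totals scaled by TMM (edgeR 4.0.16, R 4.3.3). Genes were kept with filterByExpr (minimum count 10, minimum total 15) and tested with edgeR's quasi-likelihood F test, robust, with Benjamini-Hochberg adjustment over all genes and a threshold of 0.05. Ccl17, under the filter, was tested by two-sided exact permutation of mean log2(CPM + 1). A count of 0 was given a floor of 3 counts. For the fits over all populations, 1 library under 0.1 of the median total, of another population, was left out. DESeq2 1.42.0 was an alternative. Only the edgeR test between the 2 groups was checked on simulated counts, drawn without outlying replicates or barcode classes. The other tests were not checked in this way.

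Named genes are those past the threshold, or the 10 smallest p per direction of at least 20 CPM where fewer than 5 passed (predicted genes, pseudogenes and antigen receptor segments left out), the sort markers, the CCR4 genes, up to 4 members per list by p, genes past an interaction, and Dpysl2 and Gas7. Other list members and Reg3b were named after their values were seen. The members, the 35 lists and the tests were chosen with earlier results of these data known. Coordinates are from GENCODE M21.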

Additional observations from a re-analysis of the deposited data

Results flagged for a closer look

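Over 77 genes the text gives values for and 2 groups of 8 replicates each, 154 groups were looked at. In 37 of them 1 replicate lay far from the others by Dixon's ratio. Its limit gives about 1 in 20 only for normally distributed values, and the genes were chosen by p or after their values were seen. Over 3000 genes of at least 50 CPM, the same ratio flagged ko replicate 6 in 13.7%. It flagged ctrl replicate 3 in 7.63% and ctrl replicate 2 in 7.53%. Because of how the genes were chosen, the 37 are not read as an excess, and whether they exceed these rates was not tested.

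Ctrl replicate 3 stood apart in 16 of these 37 groups. It was high in Nos2 (2660 CPM), Ccl5 (13470 CPM), Ptgs2 (3975 CPM), Ccl3 (7292 CPM), Ccl4 (6028 CPM), Tnfaip3 (1140 CPM), Nfkbiz (891 CPM), Irf8 (891 CPM), Hspa8 (3821 CPM), Ccl8 (1439 CPM), Ly6c2 (87.7 CPM), S100a8 (285 CPM) and Uvrag (132 CPM). It was low in Nr1h3 (7.31 CPM), Mmp14 (197 CPM) and Pecam1 (0 CPM). Among the ctrl replicates it also held 0 counts of Ccl17.

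Ko replicate 3 was high in Nr4a1 (935 CPM), Cd83 (1514 CPM), Nfkbiz (706 CPM), Tnfsf9 (159 CPM) and Ptgs2 (900.3 CPM). Ko replicate 1 was high in Pecam1 (70.8 CPM). Ko replicate 5 was high in Klf4 (342 CPM), Ms4a4c (86.2 CPM), Ly6c2 (58.6 CPM), Nos2 (223 CPM), Ccl5 (3554 CPM) and Cxcl9 (2075 CPM). Ko replicate 6, the library of 39872 counts, was high in Ikbkb (187 CPM), Il18bp (258 CPM), Tmem29 (70.2 CPM) and Hbb-bs (5666 CPM). Ko replicate 7 was high in S100a8 (578 CPM), S100a9 (424 CPM) and Retnlg (149.9 CPM). Ctrl replicate 4 was high in Ccl17 (796 CPM, next to 339 CPM) and ctrl replicate 2, with 51630 counts, in Igkc (29560 CPM).

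The difference of ko against ctrl in Cd36 was 4.36 higher on the log2 scale in Ly6Clo MHCIIhi than in Ly6Chi MHCIIhi, by a test of the difference itself. It rests on 3 ctrl replicates of Ly6Chi MHCIIhi, which ran from 16.9 to 150 CPM.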

How the results depend on the processing

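The count of 0 genes past the threshold was also 0 without each replicate in turn (0 to 0) and with a replicate block (0). Equal replicate numbers of ctrl and ko correlated above 0.1 in 4 of 8 pairs, from -0.24 to 0.19. The libraries of a replicate correlated at only 0.11 to 0.43, so this cannot show whether equal numbers were paired. The labels do not say. The count was 1 with no count filter (Reg3b, higher) and 1 with each library as its own sample (Map3k14). It was 1 in replicates 5 to 8 (S100a8) and 1 with all 8 groups in 1 fit (Ccl17). The other alternatives gave 0. The difference between the sets had 2 genes in DESeq2, 2 with no count filter, 2 with the replicate block (Mcpt1 and Mcpt2) and 0 to 1 without single replicates (1 without ctrl replicate 1 or ko replicate 1). Against Ly6Chi MHCIIhi the count of 1 became 22 in DESeq2, 5 with DESeq2 size factors, 33 with no count filter, 14 with barcode class, 0 without replicates under 100000 counts, 0 with all libraries kept, 0 with the replicate block, 0 with only the 4 groups, and 0 to 310 without single replicates. The causes were not tested.

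The Ccl17 difference kept its sign throughout. It lost the threshold within A/T-rich libraries (-3.004, p = 0.15), in replicates 1 to 4 (-3.23, p = 0.229, of a smallest possible 0.0286), in replicates 5 to 8 (-4.07, p = 0.0571) and without replicates under 100000 counts (-2.68, p = 0.101), each by exact permutation. It ran from -3.90 to -2.53 without single replicates, and the replicate block gave an exact sign-flip permutation p of 0.0469. Without single replicates r with Ccl17 ran from 0.13 to 0.49 (Ccl22), -0.21 to 0.40 (Ccr7) and -0.32 to 0.16 (Fscn1).

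Of 76 tested genes that the text gives values for, 61 kept their sign in every alternative that tested them. Ccl22 turned with the G/C share as covariate (-0.00447) and within G/C-rich libraries (-0.030), Ly6c2 with that covariate (-0.041), and Cd74 in library 1 (-0.00422), with barcode class added (-0.00424), in replicates 1 to 4 (-0.026) and without replicates under 100000 counts (-0.00233). Nos2 and Ccl5 turned in DESeq2 (0.22 and 0.41), within G/C-rich libraries (0.65 and 1.53) and in replicates 5 to 8 (0.74 and 1.84), and Ccl5 with the replicate block (0.26). Within A/T-rich libraries Cxcl9 (-0.17), S100a8 (-0.45), S100a9 (-0.74) and Mcpt2 (-0.34) turned, as did S100a8 (-0.68) and S100a9 (-1.17) in replicates 1 to 4. Dpysl2 turned in library 1 (0.34), with barcode class (0.14; library 1 0.12), within A/T-rich (0.13) and G/C-rich libraries (0.19) and in the sets (0.18 and 0.036), and Gas7 within G/C-rich libraries and in replicates 5 to 8 (0.10 each). Klf4 turned in replicates 1 to 4 (-0.15), Ms4a4c within G/C-rich libraries (0.000749), and Relb with each library as its own sample (-0.030), within G/C-rich libraries (-0.060), in replicates 5 to 8 (-0.152) and without replicates under 100000 counts (-0.039). Ikbkb turned in DESeq2 (-0.012), with DESeq2 size factors (-0.00257), in library 1 (-0.037), with barcode class (-0.016; library 1 -0.031), with the G/C share (-0.069), within A/T-rich libraries (-0.22), in replicates 1 to 4 (-0.246) and without replicates under 100000 counts (-0.079). Without single replicates the ranges were -0.056 to 0.43 (Ccl22), -0.21 to 0.46 (Ly6c2), -0.00916 to 0.042 (Cd74), -2.83 to 0.73 (Nos2), -2.11 to 1.19 (Ccl5), -0.10 to 1.19 (Cxcl9), -0.12 to 0.11 (Klf4), -0.60 to 0.069 (Ms4a4c), -0.052 to 0.096 (Relb) and -0.041 to 0.051 (Ikbkb). The immediate early median ran from -0.40 to -0.27 over its 31 alternatives. Replicates under 100000 counts limit what can be read of genes of low level.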

Other observations

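Reg3b, which encodes an antimicrobial lectin of the gut epithelium, was under the count filter and is named after its values were seen. It held 3 counts in ctrl and 44 in ko, and with no count filter it was the 1 gene past the threshold of 22452 (log2 fold change 3.28, SE 0.66, adjusted p = 0.0182 by edgeR). Ctrl ran from 0 to 3.78 CPM and ko from 0 to 39.3 CPM, so the groups overlapped at 0. Retnlg, a neutrophil gene, ran from 7.31 to 29.9 CPM in ctrl and from 7.24 to 150 CPM in ko (1.58, SE 0.55, adjusted p = 0.978 by edgeR), and its fold change was 0.85 without ko replicate 7. Ccl8, a chemokine of resident macrophages, stood at 582 ± 366 CPM (SD, n = 8) in ctrl and 811 ± 272 CPM (SD, n = 8) in ko, with log2 fold changes of 0.07 and 0.81 in the 2 sets.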
